A study of Rattus norvegicus with 4 samples.

Results

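The miR-17/92 cluster and its relatives are mostly polycistronic transcripts, each cut into several microRNAs (miRNAs), short RNAs that pair with messenger RNAs and repress them. The guide arm is the strand of a hairpin that is usually kept, and the minor arm is the strand that is usually discarded. Members were the rows for the guide arms of miR-17, miR-18a, miR-19a, miR-19b, miR-20a, miR-20b, miR-25, miR-92a, miR-92b, miR-93, miR-106b and miR-363, chosen by name alone. They were 12 of the 680 rat miRNA names that the files list.

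Small RNA libraries had been made from total RNA of rat liver, labelled as hepatic fibrosis in 2 samples and as normal liver in 2. The sources used here give neither strain nor age nor the way the fibrosis arose, and the labels do not say whether replicates came from separate animals. Replicate 2 of fibrosis and replicate 2 of normal held the same value for each name, with 0 differences, so their files were counted as 1 library, named here the library under both labels. That left 3 distinct libraries, 1 of them of unsettled tissue, and the values below compare libraries, not conditions. The values had been scaled to 6951148 reads for fibrosis replicate 1, 7070374 for normal replicate 1 and 6357069 for the library under both labels. The hepatocyte miRNA miR-122 stood at 243915, 263140 and 247931 reads per 1000000 (RPM) in these libraries. Where 3 values of 1 miRNA or sum follow one another below, they stand in this order of the libraries.

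MYC and E2F factors drive the miR-17/92 transcript, which is known for its part in proliferation and as an oncogene. Arms with the miR-17 seed repress cell cycle inhibitors such as Cdkn1a and the receptor Tgfbr2 of the profibrotic TGF-beta pathway. Arms with the miR-92 seed repress the death-promoting gene Bcl2l11. In liver, these clusters are known from regeneration, liver cancer and the stellate cells that make collagen in fibrosis.

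The sequences are shown because the seed, which largely decides which messages a miRNA pairs with, cuts across the transcripts. All 12 members matched a mature miRNA of RefSeq (build GRCr8), and capitals mark the seed, bases 2 to 8 from the 5′ end. The 12 members carry 4 seeds. The miR-17 seed is shared by 5 members from 3 transcripts:
miR-17-5p: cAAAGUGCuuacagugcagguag
miR-20a: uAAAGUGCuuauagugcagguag
miR-20b-5p: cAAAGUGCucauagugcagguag
miR-106b: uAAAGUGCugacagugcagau
miR-93: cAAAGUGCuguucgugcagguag
The miR-18 seed belongs to 1 member and the miR-19 seed to 2:
miR-18a: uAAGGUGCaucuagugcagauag
miR-19a: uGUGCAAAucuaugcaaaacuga
miR-19b: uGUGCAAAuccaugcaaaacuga
The miR-92 seed is shared by 4 members from 4 transcripts:
miR-92a: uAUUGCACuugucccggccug
miR-25: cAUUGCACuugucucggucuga
miR-92b: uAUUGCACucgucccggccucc
miR-363: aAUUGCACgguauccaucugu

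Several of these arms differ by so few bases that the authors' assignment of reads, whose rule is not given in the sources used here, could move reads between them. Counted from the 5′ end of the first named, miR-17-5p and miR-20a differ at C1U and C12U, and miR-19a and miR-19b differ at U11C alone. miR-92a differs from miR-25 at U1C, C14U and C18U over the 21 bases they can be compared on. The separate values of such neighbours are therefore uncertain.

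In GRCr8 the 6 miR-17/92 guide arms span 762 bases of the plus strand, chr15:98587861-98588622. The miR-106b, miR-93 and miR-25 arms span 472 bases of the minus strand, chr12:22156652-22157123, and the annotation of that assembly places their hairpins inside Mcm7, a gene of the DNA replication helicase. On the X chromosome, chrX:137342788-137343637 (minus strand, 850 bases) holds the transcript of miR-106a and miR-363, with second copies of miR-17-5p, miR-19b and miR-92a beside miR-20b and miR-363. The mature sequences of those 3 second copies equal the chromosome 15 ones, so their reads cannot be divided by locus. They are counted here with miR-17/92. miR-92b comes from a separate locus, chr2:176931663-176931684 (minus strand).

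The members were a small part of the liver libraries and were very unequal. Together they took 0.0302%, 0.0321% and 0.0179% of the miRNA reads of the 3 libraries. Reads were seen in every library for 8 of the 12, and 7 rose above 3 reads in at least 1 library. miR-25 ranked 30 and miR-92a 54 by mean RPM among the 294 miRNAs detected, miR-106b 87 and miR-93 91, and miR-17-5p, miR-19b and miR-20a 114, 115 and 122. Small RNA libraries capture different sequences with different efficiency, so an order between miRNAs is an order of reads.

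The 5 other members could not be compared, since each had at most 2 reads in any library. miR-18a had 1 read and miR-19a 2 reads in fibrosis replicate 1, and neither had a read elsewhere. miR-92b had 1, 0 and 1 reads, and miR-363 had 2, 1 and 2. miR-20b-5p had 0 reads in all 3 libraries. For a count of 0, the level of 3 reads serves here as the limit, which was 0.432, 0.424 and 0.472 RPM. The upper ends of the two-sided 95% exact intervals are slightly higher, at 0.531, 0.522 and 0.580 RPM. These limits, and all intervals given here, cover counting error only, because PCR copies of 1 molecule cannot be told from separate molecules here.

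**Figure D1:**
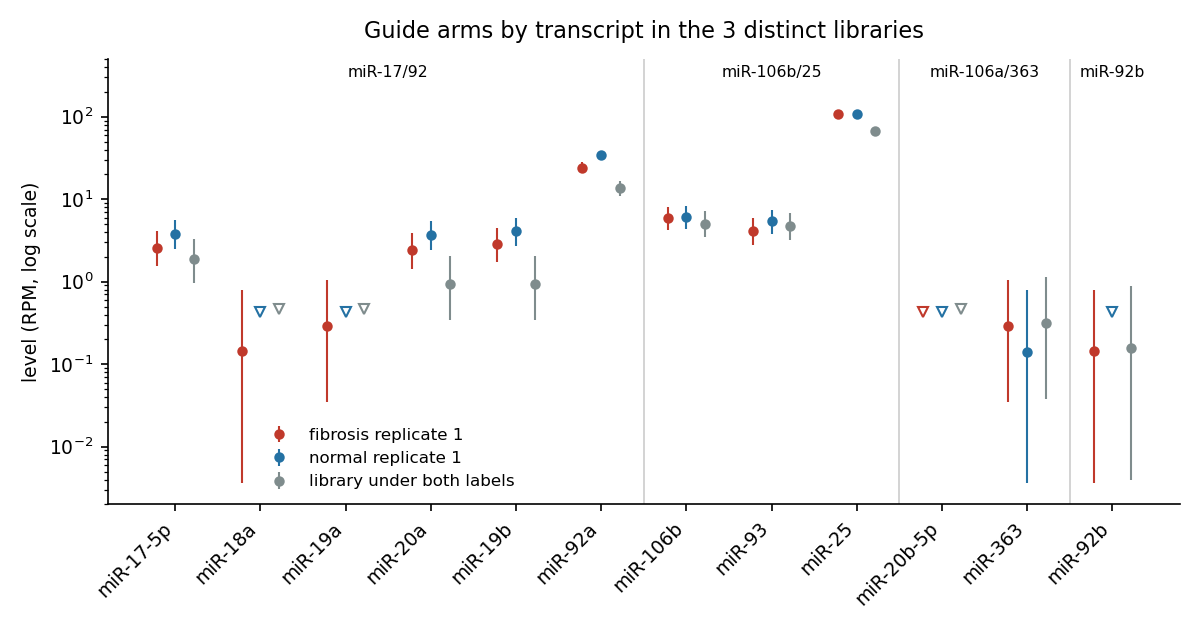
Level in RPM (vertical axis, log scale) of each of the 12 guide arms (horizontal axis, grouped by transcript) in the 3 distinct libraries. Points are levels with 95% exact binomial counting intervals, and open triangles mark the level of 3 reads where the count was 0. miR-25 and miR-92a stand above the other arms of their transcripts in each library.

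Among the miR-17/92 arms, normal replicate 1 was the highest library and the library under both labels the lowest for each of the 4 that could be compared. miR-92a, known in endothelial and blood cells, was at 24.2, 33.9 and 13.5 RPM. In bulk tissue, fewer cells of a type and less RNA per cell cannot be told apart. miR-17-5p, the founding member, was at 2.59, 3.82 and 1.89 RPM. miR-20a, its near copy, was at 2.45, 3.68 and 0.944 RPM. The miR-20a values rest on 17, 26 and 6 reads, so a few reads move them. miR-19b, which carries the miR-19 seed, was at 2.88, 4.10 and 0.944 RPM, on 20, 29 and 6 reads.

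Of the miR-106b/25 arms, miR-106b kept that order, and miR-25 and miR-93 did not. miR-25, a repressor of Bcl2l11, was at 109.3, 108.6 and 66.4 RPM, nearly level in the first pair. miR-106b, which carries the miR-17 seed, was at 5.90, 6.08 and 5.03 RPM. miR-93, with the same seed, was at 4.17, 5.37 and 4.72 RPM, so that the library under both labels lay between the other two.

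Between fibrosis replicate 1 and normal replicate 1 the 7 measurable members gave 1 interval below 1 and 0 above 1. The ratio of miR-92a was 0.712 (95% exact counting interval 0.581 to 0.871). Among all 136 miRNAs with at least 20 reads over both libraries, 24.3% had an interval below 1 and 14.0% one above 1, so 1 of 7 is no larger a share than that background. The ratios of miR-17-5p (0.678, 0.352 to 1.28), miR-20a (0.665, 0.339 to 1.27) and miR-19b (0.701, 0.376 to 1.28) lay close to that of miR-92a, with intervals that included 1. Those of miR-93 (0.776, 0.462 to 1.29), miR-106b (0.970, 0.617 to 1.52) and miR-25 (1.01, 0.909 to 1.11) included 1 as well. A difference of the size seen for miR-92a was not detectable at the depth of miR-17-5p, miR-20a or miR-19b. Lower by at least 1.5-fold was 1 of 7, miR-20a, against 8.82% of all 136. The median ratio was 0.712 over the 7 members and 0.917 over the 136.

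Summed over its 6 guide arms, miR-17/92 was at 32.5, 45.5 and 17.3 RPM. Fibrosis replicate 1 over normal replicate 1 gave 0.714 (0.600 to 0.849). Summed miR-106b/25 was at 119.4, 120.1 and 76.1 RPM, and its ratio was 0.994 (0.903 to 1.10). The first ratio divided by the second, which no scaling can change, was 0.718 (0.588 to 0.877), so the transcripts differed in their ratio beyond counting error. For the library under both labels it was 0.599 (0.465 to 0.769) against normal replicate 1 and 0.835 (0.641 to 1.08) against fibrosis replicate 1, an interval that includes 1. There is no replicate check on these. Counting the library under both labels as a second fibrosis library made the miR-17/92 ratio 0.547, and counting it as a second normal library turned it to 1.03. For miR-92a alone these values were 0.555 and 1.02. Whether the miR-17/92 ratio of fibrosis to normal tissue lay well below 1 or near 1 thus depends on a label that these files do not settle. The column header of normal replicate 2 does not match its sample's title, whereas those of the other files do.

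**Figure D2:**
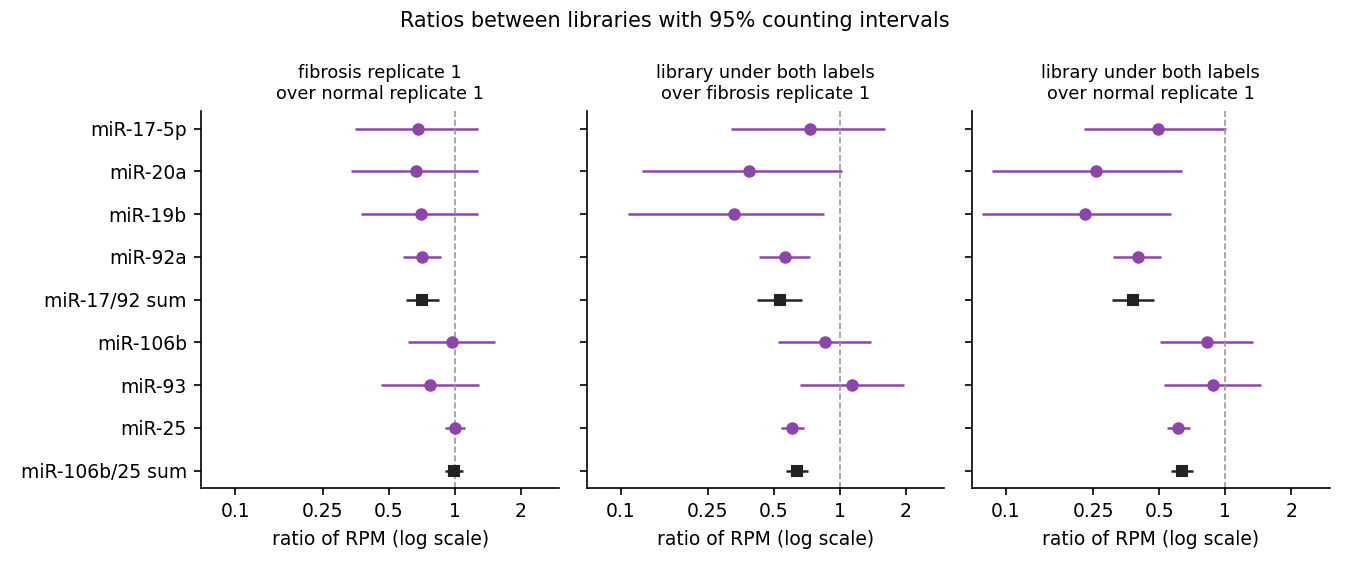
Ratio of RPM (horizontal axis, log scale) for the 7 guide arms that could be compared and for the sums of 2 transcripts (vertical axis), in the 3 comparisons of libraries. Circles are single arms, squares are sums and bars are 95% exact counting intervals. In the left panel the miR-17/92 arms lie near 0.7 and miR-25 near 1, and in the other panels miR-92a and miR-25 both lie below 1.

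The library under both labels was lower than each of the others in most of these arms. Against fibrosis replicate 1, the intervals of miR-19b (0.328, 0.108 to 0.847), miR-92a (0.560, 0.427 to 0.730) and miR-25 (0.607, 0.538 to 0.685) lay below 1, which is 3 of 7 against 23.7% of all 135 miRNAs, and 0 lay above 1 against 20.7%. Lower by at least 1.5-fold were 4 of 7 against 17%. The median ratio was 0.607 for the members and 0.963 for all 135.

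Against normal replicate 1, 4 of 7 intervals lay below 1 where 31.4% of all 137 miRNAs did, and 0 above 1 where 19.7% did. They belonged to miR-19b (0.230, 0.0781 to 0.564), miR-20a (0.257, 0.0864 to 0.638), miR-92a (0.399, 0.308 to 0.512) and miR-25 (0.611, 0.541 to 0.689). Lower by at least 1.5-fold were 5 of 7 against 26.3%, and the median ratio was 0.494 against 0.938. These comparisons share the library under both labels, so they are not separate pieces of evidence. Arms of the same transcript are not separate either. In that library miR-17-5p, miR-20a and miR-19b rest on 12, 6 and 6 reads. The shares over all miRNAs cover every depth from 20 reads up.

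**Figure D3:**
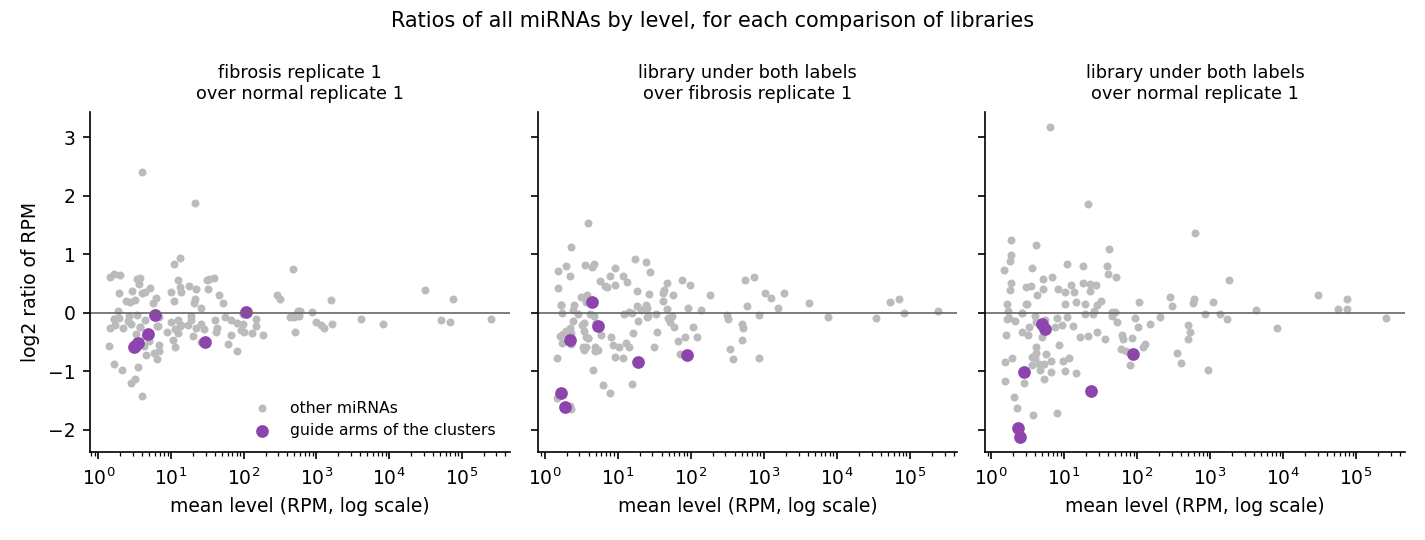
Log2 ratio of RPM (vertical axis) against mean level in RPM (horizontal axis, log scale) for all miRNAs with at least 20 reads over both libraries compared, 1 panel for each comparison. Grey points are other miRNAs and purple points the 7 guide arms. The purple points lie within the range of the grey ones in the left panel, and in the right panel miR-19b (ratio 0.230) and miR-20a (0.257) lie below all grey points, the lowest of which is miR-451 (0.298).

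Within the miR-17/92 transcript no pair of arms differed in proportion between libraries beyond counting error, while the total varied. miR-92a made up 74.3% (68.1 to 79.9), 74.5% (69.4 to 79.2) and 78.2% (69.3 to 85.5) of the guide reads, which were 226 in fibrosis replicate 1 and 110 in the library under both labels. miR-17-5p took 7.96%, 8.39% and 10.9%, miR-20a 7.52%, 8.07% and 5.45%, and miR-19b 8.85%, 9.01% and 5.45%. The intervals of these shares overlap between libraries for each of these arms. A pair of arms can be compared without any scaling: miR-92a had 9.33 (5.73 to 16.1), 8.89 (5.96 to 13.8) and 7.17 (3.90 to 14.4) reads for each read of miR-17-5p. Of 18 such comparisons, 6 pairs of arms in 3 comparisons of libraries, 0 had an interval that excluded 1. The widest ran from 0.188 to 3.86 (miR-19b over miR-20a). Only miR-92a over miR-19b, between fibrosis replicate 1 and normal replicate 1, had an interval (0.534 to 1.96) that excluded a 2-fold change in either direction. Each other interval left room for a 2-fold change of proportion in at least 1 direction, so such changes could have been missed.

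**Figure D4:**
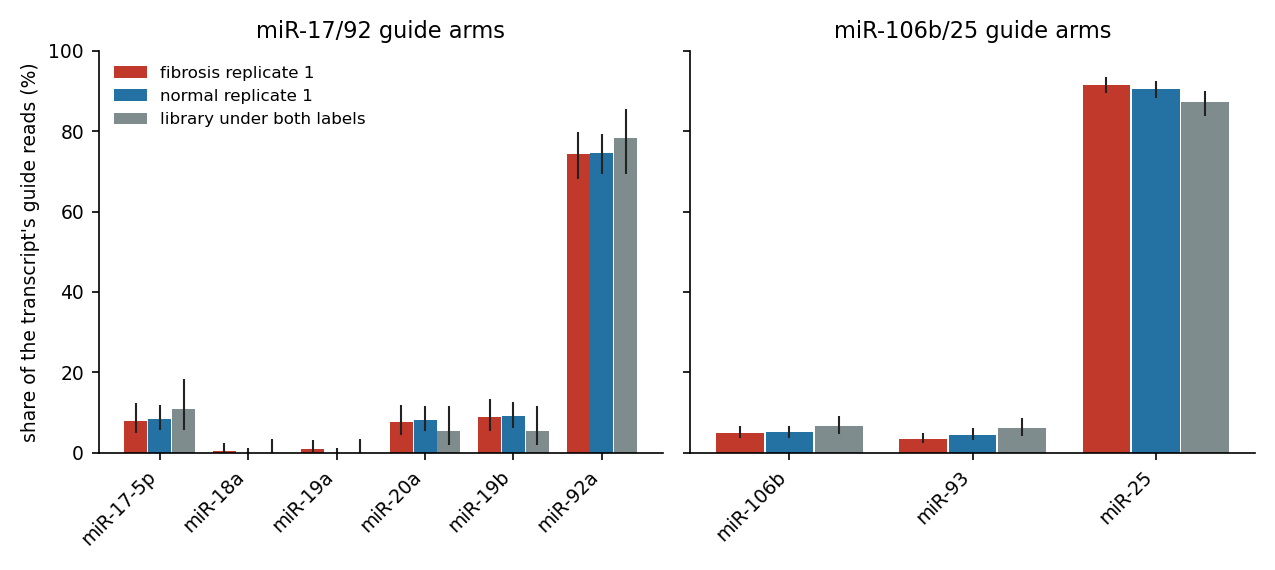
Share of a transcript's guide reads in percent (vertical axis) for each guide arm (horizontal axis) of miR-17/92 and of miR-106b/25, in the 3 distinct libraries. Bars are shares with 95% exact binomial intervals. miR-92a holds 74.3% to 78.2% of its transcript and miR-25 holds 87.2% to 91.6% of its own.

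The miR-106b/25 transcript was more uneven. miR-25 made up 91.6% (89.5 to 93.4), 90.5% (88.3 to 92.4) and 87.2% (83.9 to 90.0) of its guide reads, which were 830, 849 and 484. For each read of miR-93 there were 26.2 (18.1 to 39.4), 20.2 (14.6 to 28.8) and 14.1 (9.71 to 21.1) reads of miR-25. Of the 9 comparisons in this transcript, 1 interval excluded 1: the miR-25 to miR-93 ratio in the library under both labels was 0.537 (0.306 to 0.940) of that in fibrosis replicate 1. It was 1 of 27 intervals over both transcripts, which were not adjusted for their number. miR-93 over miR-106b stayed between 0.707 and 0.938 within the libraries.

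By seed, the abundant arms set the sums. The miR-92 seed stood at 133.9, 142.7 and 80.4 RPM, mostly as miR-25. Fibrosis replicate 1 over normal replicate 1 gave 0.939 (0.858 to 1.03). The miR-17 seed stood at 15.1, 18.95 and 12.6 RPM, with a ratio of 0.797 (0.611 to 1.04). For the miR-19 seed the ratio was 0.772 (0.422 to 1.39), on 22 and 29 reads. None of these 3 intervals excluded 1 in that comparison.

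Of the 15 rows for minor arms of the same hairpins, 8 had 0 reads in all 3 libraries and 6 had from 1 to 5 reads at most. The minor arms of the twin miR-17 hairpins differ in sequence and so separate the loci, which the guide arm cannot:
miR-17-1-3p: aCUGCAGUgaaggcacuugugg
miR-17-2-3p: aCUGCACUgcaagcacuucuuac
The first, from chromosome 15, had 3, 1 and 0 reads, and the second, from the X chromosome, had 3, 2 and 1. Of the guide rows that only 1 locus makes, those of chromosome 15, miR-18a, miR-19a and miR-20a, had 20, 26 and 6 reads, and the X guides miR-20b-5p and miR-363 had 2, 1 and 2. The minor arms that only 1 locus makes had 7, 5 and 2 reads from chromosome 15 and 3, 2 and 1 from the X chromosome, a smaller gap on few reads.

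The minor arm of miR-25, written miR-25* in the files, was the remaining row, and its proportion to the guide differed between libraries beyond counting error. Its RefSeq sequence, with bases 2 to 8 in capitals, shares no seed with the guide:
miR-25-5p: aGGCGGAGacacgggcaauugc
It was at 3.45, 4.10 and 6.13 RPM, highest in the library where miR-25 itself was lowest. For each minor arm read there were 31.7 (21.1 to 49.7), 26.5 (18.3 to 39.8) and 10.8 (7.78 to 15.4) guide reads. The last ratio was 0.342 (0.194 to 0.592) of that in fibrosis replicate 1 and 0.409 (0.240 to 0.689) of that in normal replicate 1. Other hairpins changed their arm proportion as well. Of 15 hairpins with at least 10 reads of each arm in each library (miR-122 not included, and the arm with more reads taken as the guide where no name carries an asterisk), 1 had an interval below 1 in each of these comparisons (6.67%), which was miR-25, and 2 had one above 1 (13.3%). Those 2 were miR-151 and miR-30a against fibrosis replicate 1, and miR-30b and miR-532 against normal replicate 1. Where a name carries an asterisk, the other arm was taken as the guide, also where it had fewer reads. Over the library under both labels and fibrosis replicate 1, miR-151* averaged 3.35 RPM and miR-151 2.29 RPM. With these arms exchanged, miR-151 would lie below 1 as miR-25 does.

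**Figure D5:**
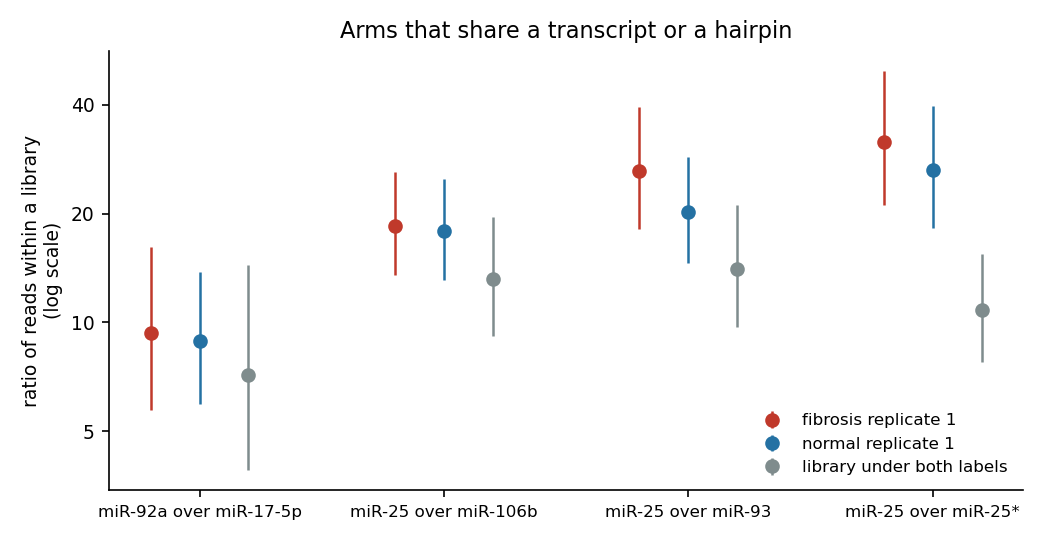
Ratio of reads within a library (vertical axis, log scale) for 4 pairs of arms that share a transcript or a hairpin (horizontal axis), in the 3 distinct libraries, with 95% exact counting intervals. The ratio of miR-92a to miR-17-5p has overlapping intervals in all 3 libraries, and that of miR-25 to miR-25* is 10.8 in the library under both labels against 26.5 and 31.7.

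Markers of other cells also varied between the libraries, in differing orders. The erythroid pair miR-451 and miR-144 together stood at 2.88, 7.78 and 2.05 RPM, highest in normal replicate 1 and lowest in the library under both labels, as the miR-17/92 sum was. The mesenchymal list (miR-199a-3p, miR-143 and miR-145) stood at 663.3, 461.5 and 1002 RPM and the leukocyte list (both miR-142 arms, miR-223 and miR-150) at 41.9, 28.0 and 59.6 RPM, both sums in the opposite order. The mesenchymal sum is mostly miR-199a-3p (592, 350.5 and 903.4 RPM). miR-145 (9.21, 13.7 and 6.92 RPM) had the order of the miR-17/92 sum, and miR-143 (62.1, 97.3 and 91.2 RPM) neither order. The leukocyte sum is mostly miR-142-5p (39.4, 26.4 and 56.0 RPM). miR-223 and miR-150 had its order on 2 to 11 reads per library, and miR-142-3p (0.432, 0.707 and 0.629 RPM) had neither order. The hepatocyte miRNAs miR-192 (7826, 8936 and 7492 RPM) and miR-194 (49.9, 72.1 and 47.2 RPM) also had the order of the miR-17/92 sum. miR-122, the third of the hepatocyte list and most of its reads, did not (243915, 263140 and 247931 RPM). Like miR-122, the sum of that list was lowest in fibrosis replicate 1 (251792, 272148 and 255470 RPM). The endothelial miR-126 arms stood at 7.77, 6.51 and 10.9 RPM and the biliary list (miR-200a, miR-200b and miR-429) at 10.2, 9.90 and 7.39 RPM. In each of these lists 0 members were at 0 in any library. Their part in the values of the cluster arms was not tested.

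Other cell cycle miRNAs were mixed. The miR-15/16 family (4 of its 5 names had a row), which represses cyclins, stood at 103.2, 127.7 and 109.3 RPM in sum. Within it, miR-16 (57.3, 74.8 and 54.9 RPM) and miR-15b (5.90, 6.93 and 3.78 RPM) had the order of the miR-17/92 sum, while miR-195 (24.0, 27.4 and 30.0 RPM) and miR-497 (15.97, 18.5 and 20.6 RPM) were highest in the library under both labels. miR-322 and miR-503, a pair that also restrains the cell cycle, stood at 21.6, 12.02 and 15.7 RPM together, highest in fibrosis replicate 1. That sum is mostly miR-503 (17.4, 9.05 and 11.6 RPM) and leaves out miR-322*, the other arm of its hairpin. Over the library under both labels and fibrosis replicate 1, miR-322* averaged 56.7 RPM and miR-322 4.13 RPM. The ratio of miR-322* between these libraries was 1.23, higher in the library under both labels. Among 71 other miRNAs averaging 10 RPM or more, the 3 whose levels relative to their own mean lay nearest to those of the miR-17/92 sum over the 3 libraries were miR-423* (distance 0.32 on the log2 scale), miR-10a-5p (0.37) and miR-378 (0.42). With 3 points such a likeness is a description.

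The contrast that the labels imply called no member. limma on log2(RPM + 1), with all 4 files as labelled, called 0 of 294 miRNAs (0%) at the adjusted 0.05 level, with 4 at an unadjusted p under 0.05. The quasi-likelihood test of edgeR on the recovered reads called 0, with 1 at an unadjusted p under 0.05, and DESeq2 called 0, with 0. On the log2(RPM + 1) scale, which understates changes of low miRNAs, fibrosis stood -0.24 from normal for miR-92a (SE 0.36), -0.21 for miR-17-5p (SE 0.43) and 0.0047 for miR-25 (SE 0.31). The library under both labels enters both group means, which makes these differences smaller than those between the distinct libraries. For miR-92a the log2 ratio of fibrosis replicate 1 over normal replicate 1 was -0.49. limma gave all 7 measurable members an adjusted p of 1. With 1 library in both groups, the fit says little about the conditions.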

How the data were processed

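The authors deposited RPM values for 680 miRNA names per file. The submitters' processing notes name CASAVA 1.4 and rat build rn5. Aligner, miRNA annotation and handling of reads with several matches were not given in the sources used here. Dividing each RPM by the smallest step of its file gave whole reads for 100% of values above 0, within 0.01 reads. Ratios between libraries carry exact (Clopper-Pearson) conditional 95% intervals of these reads, and ratios of ratios carry exact conditional odds-ratio intervals (Python 3.11.15, scipy 1.17.1).

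Text names all 12 members, their minor arms, fixed marker and comparison lists, and the 3 miRNAs nearest in pattern. Outside these it names miR-322* and the hairpins whose arm proportions changed. The rule for members uses names only, but it and the lists were set with earlier results of these data known. The labelled contrast used limma 3.58.1 on log2(RPM + 1), trend included, adjusted by Benjamini-Hochberg over the miRNAs with reads in any file, and edgeR 4.0.16 and DESeq2 1.42.0 were alternatives. Tested on simulated reads, this limma fit made too many false calls, nearly all among miRNAs under 1 RPM whose few reads tie. Its calls there could not have been trusted. With a mean of at least 1 RPM required, false calls were few where all simulated libraries were separate. That check does not cover the layout of these data, where 1 library is in both groups. Sequences and coordinates are from RefSeq, GRCr8, and were not used to assign reads.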

Additional observations from a re-analysis of the deposited data

How the results depend on the processing

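Scaling with TMM, DESeq2 size factors, the listed miRNA reads (with and without miR-122) or upper-quartile factors left the miR-17/92 sum below 1 in each of the 3 comparisons, from 0.679 to 0.748 for fibrosis replicate 1 over normal replicate 1. The miR-106b/25 sum in that comparison lay on both sides of 1, from 0.946 to 1.04, and so did miR-25 and miR-106b. Upper-quartile factors moved all ratios of the library under both labels to fibrosis replicate 1 by 0.21 on the log2 scale, and with them the miR-106b/25 sum was 0.738. Counting the library under both labels once, as fibrosis, gave ratios of 0.547 for miR-17/92 and 0.814 for miR-106b/25; counting it once, as normal, gave 1.03 and 1.22, and 1.02 for miR-92a. These follow from which group that library joins. The number of members whose interval lay below 1 for fibrosis replicate 1 over normal replicate 1 was 1 under each scaling (chosen after seeing the data) and each minimum of reads. Without miR-92a and miR-19b, miR-17-5p held 47.4%, 50.9% and 66.7% of the remaining miR-17/92 reads.

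The labelled contrast called 0 miRNAs in the other fits that kept all 4 files. Among them were the replicate block and the fit with at least 1 RPM required (146 miRNAs, 0 at an unadjusted p under 0.05, smallest adjusted p 0.993 by limma). Leaving out a file, or counting the library under both labels once, left 1 library in a group, so calls of those fits are not given. Counting it once as fibrosis is the same fit as leaving out normal replicate 2. As normal, it is the same fit as leaving out fibrosis replicate 2. Replicate numbers pair nothing here, since both replicates numbered 2 are 1 library. Counts of 6 to 43 reads limit miR-17-5p, miR-19b, miR-20a, miR-93 and miR-106b, and the 5 members with at most 2 reads could not be compared.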
